A study of Mus musculus with 10 samples.

Results

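The genes of intraflagellar transport and of the BBSome were examined in mouse testicular germ cells with and without a mutated form of GRTH, the testicular RNA helicase encoded by Ddx25. The members are all genes of the deposited expression table whose symbol begins with Ift or Bbs followed by a digit, together with Traf3ip1, Cluap1, Hspb11, Arl6, Bbip1, Lztfl1 and Tulp3, which encode further subunits, regulators or adaptors of the same machinery. They number 29 of 15507 genes, and all 29 passed the filter on low counts. RNA was taken from testicular germ cells of 5 wild-type (WT) mice and 5 homozygous GRTH Knock-In (KI) mice, all 45 days old and kept under the same housing and light cycle, with 1 library per mouse. In KI mice a human GRTH gene with an arginine-to-histidine mutation was brought in, and WT mice have the mouse gene only. Neither group carries the human gene without the mutation, so that the human gene and its mutation cannot be told apart. The cells were dispersed from whole testes with collagenase and trypsin, and each preparation holds all germ cell stages of that testis together.

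Intraflagellar transport (IFT) carries building blocks along the axoneme in large trains. The IFT-B complex, with a core and a peripheral part, travels towards the tip with kinesin-II, and the IFT-A complex serves the return journey with cytoplasmic dynein and the entry of membrane proteins. The BBSome, named after Bardet-Biedl syndrome, is an adaptor that rides on these trains and moves membrane proteins. It is recruited to membranes by the small GTPase ARL6, and chaperonin-like BBS proteins assist its assembly. In the testis IFT proteins are needed to build the sperm flagellum, which grows out in round spermatids and is completed in elongating spermatids, and several of them also act at the manchette, the microtubule skirt that shapes the spermatid head.

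The libraries held 13323024 to 16422347 reads on genes in WT and 12722086 to 15500582 in KI. Ddx25, the targeted mouse gene, had normalized counts of 5198 to 11101 in the 5 WT libraries. It had 146, 194 and 161 in KI libraries 1 to 3, but 2.88 and 1.84 in KI libraries 4 and 5. All 11 markers of elongating spermatids that were examined fell in KI, with log2 fold changes from −3.30 to −1.85, and their summed normalized count was 250019 to 448424 in WT and 36912 to 74209 in KI. Over all 10 libraries none of the 8 markers of round spermatids and none of the 10 markers of spermatocytes changed by 1.5-fold with an adjusted p under 0.05. Since these are whole preparations, fewer cells of a type and less RNA per cell cannot be told apart, and the part of the cell composition in the values below was not tested. Libraries 1 to 3 and libraries 4 and 5 of both genotypes separated on the second principal component, which held 9.75% of the variance, and the labels give no batch for them. In libraries 4 and 5 alone 4 of the 8 round spermatid markers (median log2 fold change −0.65) and 2 of the 10 spermatocyte markers passed both limits, and in libraries 1 to 3 alone none did (medians −0.19 and −0.07).

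Most of the 29 genes were close to level between the genotypes. A normalized count is the number of reads on a gene divided by the size factor of its library, and KI was compared with WT by limma on log2(normalized count + 1), a scale that slightly understates changes of low genes, with Benjamini-Hochberg adjustment over 15389 genes. At an adjusted p under 0.05 and a fold change of at least 1.5, 1 of 29 members was lower in KI (Ift57) and 0 were higher, beside 8.22% lower and 6.13% higher among all genes tested. By the adjusted p alone, 5 members were lower (Ift57, Bbs5, Ift43, Ift81 and Arl6), beside 13.3% of all genes, and 1 was higher (Ift46), beside 9.65%. At an unadjusted p under 0.05 there were 8 lower and 2 higher members, beside 18.4% and 16.2% of all genes. For 26 of 29 members the 95% interval of the fold change stayed within 1.5-fold in either direction, and the exceptions were Ift57, Ift46 and Bbs5. Among all genes this held for 54.0%, a share that also depends on how many reads a gene has. The median log2 fold change of the members was −0.05 against 0.03 over all genes. It was 0.18 against 0.25 when the reads were scaled to library totals, and 0.05 against 0.12 with upper-quartile scaling, so that the sign of the median followed the scaling. With library totals 1 member was lower, beside 7.92% of all genes, and 9 were higher, beside 32.6%, by the adjusted p alone. The count of lower members was 2 without WT library 1 or 2, beside 11.4% and 11.1% of all genes. It was 3 without WT library 5 or KI library 2 or 3, beside 12.8%, 12.1% and 12% of all genes.

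**Figure D1:**
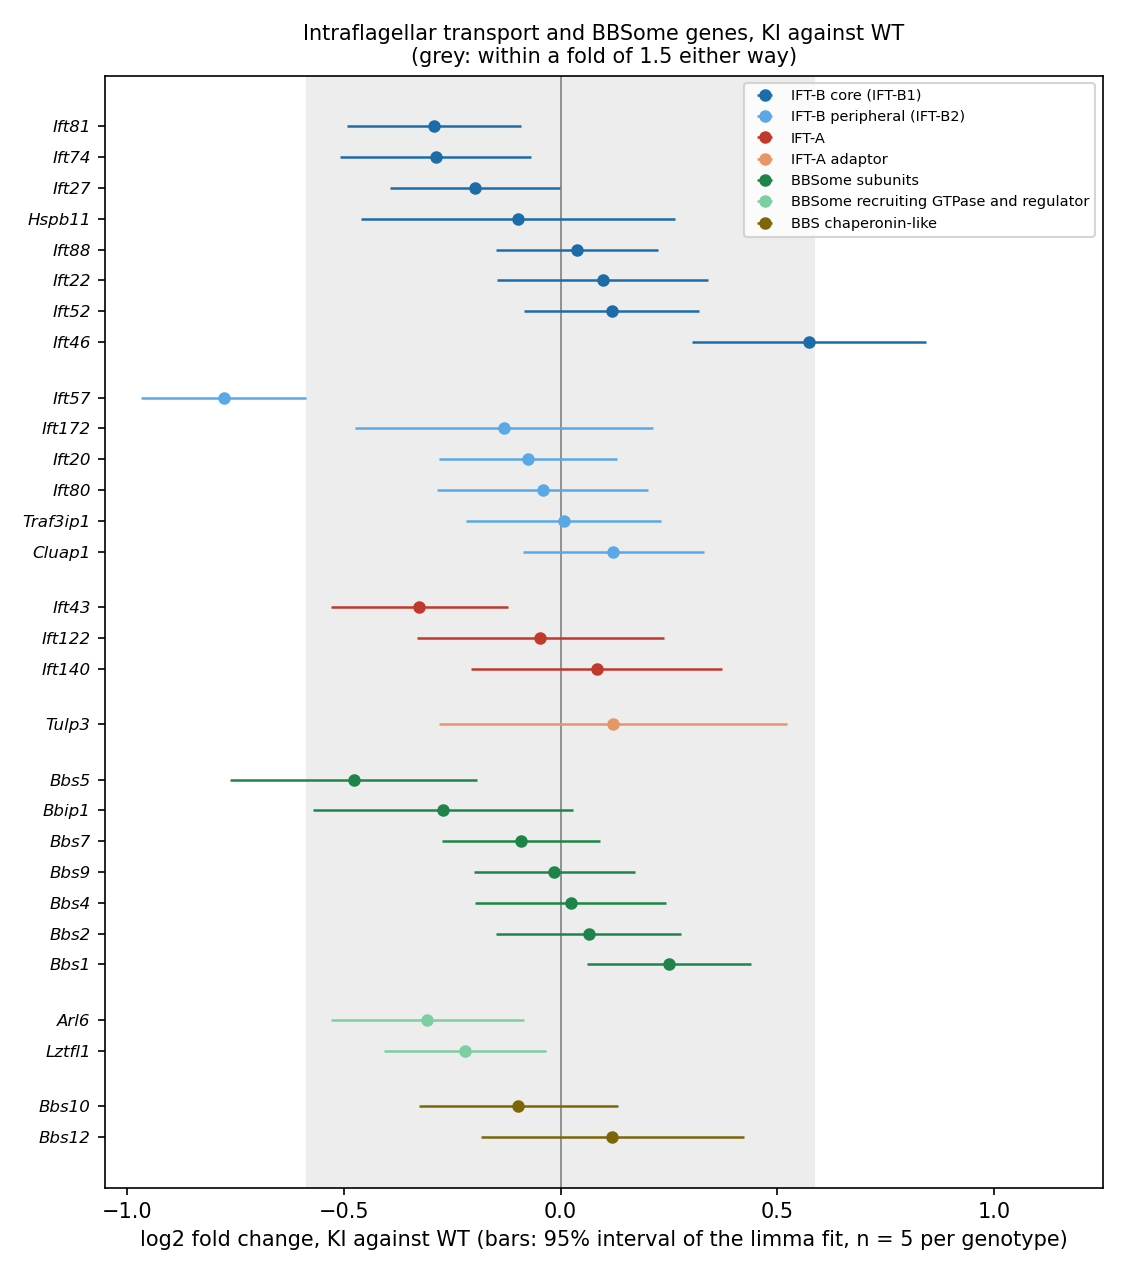
Log2 fold change of each of the 29 genes, KI against WT, on the horizontal axis, with the 95% interval of the limma fit as a bar and genes grouped by role on the vertical axis. The grey band marks a fold of 1.5 in either direction, and the bars of Ift57, Ift46 and Bbs5 are the ones that leave it.

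Ift57, a peripheral IFT-B subunit, fell in KI, and over all 10 libraries, as the authors scaled them, it had the largest fold change of the members. With library totals, and in libraries 4 and 5 alone, that of Ift46 was larger. The gene lies at chr16:49699294-49765127 on the plus strand (GRCm38, the assembly of mm10). Its normalized counts were 1090.0, 1036, 908, 871 and 984 in WT libraries 1 to 5 and 565, 559, 598, 595 and 527 in KI libraries 1 to 5. Every KI value was below every WT value, and the spread among KI libraries was small. The mean fell by 41.8%, from 978 ± 89.9 to 569 ± 29.2 (SD, n = 5), or −0.78 on the log2 scale (SE 0.09, 95% interval −0.97 to −0.59, adjusted p = 1.67e-05 by limma). Libraries 1 to 3 alone gave −0.81 and libraries 4 and 5 alone gave −0.72, and leaving out single libraries gave −0.82 to −0.74. Scaling to library totals gave −0.55 with an adjusted p of 0.000484 by limma, which kept the direction but lay under the 1.5-fold limit. A gene model on the opposite strand, Gm15518, overlaps 7.86% of the exon bases of Ift57, and whether the counting used strand is not given in the sources used here.

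The promoter of Ift57 is shown because Ift57 was the member called at 1.5-fold. This promoter held both kinds of element that were searched for. These are the X-box bound by RFX factors, which drive many ciliary genes, and the cyclic AMP response element (CRE) bound by CREM, a master factor of spermatids. The promoter of Ift46, which moved the other way, held neither in the searched forms and is shown for contrast, having been chosen after its values were seen. The windows of Bbs5, Ift43 and Arl6, which fell by the adjusted p alone, held neither the X-box nor the CRE. For Ift81, which also fell, there was no window. A link between these elements and the direction of change was not tested. The promoters of Ift57 and Ift46 are both 300-base windows of RefSeq on GRCm38.p6, from 250 bases before to 50 after the gene start. They are written 5′ to 3′ on the plus strand, where both genes lie. Ift57 spans chr16:49699044-49699343 and Ift46 spans chr9:44772759-44773058. Capitals mark, in order, the CRE TGACGTCA at −162 to −155, an X-box at −87 to −74 and a further GTTGCC at −60 to −55, counted from the gene start. This last GTTGCC is followed by TGGTAAC, which the searched X-box form, with its fixed spacing, did not match.
Ift57: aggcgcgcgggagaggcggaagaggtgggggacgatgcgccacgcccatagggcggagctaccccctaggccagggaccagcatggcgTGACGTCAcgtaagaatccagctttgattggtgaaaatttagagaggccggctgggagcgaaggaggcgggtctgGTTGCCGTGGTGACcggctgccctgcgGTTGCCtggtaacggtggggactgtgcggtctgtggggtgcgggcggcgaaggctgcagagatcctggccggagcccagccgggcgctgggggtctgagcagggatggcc
Ift46: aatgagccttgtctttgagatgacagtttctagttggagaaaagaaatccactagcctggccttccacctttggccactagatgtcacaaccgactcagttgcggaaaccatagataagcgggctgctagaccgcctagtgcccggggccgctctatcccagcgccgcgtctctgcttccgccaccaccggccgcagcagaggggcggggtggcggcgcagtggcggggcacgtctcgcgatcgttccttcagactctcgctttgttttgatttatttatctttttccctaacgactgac

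The promoter table held windows for 26 of the 29 genes, 27 windows in all because Arl6 has more than 1. It had no entry for Ift122, Ift80 and Ift81. The X-box, searched on both strands as GTNNCC followed by 3 free letters and GNAAC, was found in 5 of 27 windows, or 18.5%. It was in 2.17% of all 32851 promoter windows of the table, and in 2.95% of those of genes in the expression table. The shares of motifs describe the windows, and the difference between them was not tested. The 5 windows belong to Bbs1, Bbs4, Bbs7, Ift22 and Ift57, and Ift22 has 2 matches. The shorter element GTTGCC, which can lie inside an X-box, was in 37.0% of the members' windows, 12.5% of all windows and 13.5% of those of genes in the expression table. The CRE TGACGTCA was in the window of Ift57 alone, 3.70% of the members' windows against 1.79% of all and 2.89% of those of genes in the expression table. Its shorter form TGACGT, which the CRE contains, was in 14.8% against 7.51% and 10.5%. Counting only the 250 bases before the start, the X-box was in 11.1% of the members' windows and 1.80% of all, since the matches of Bbs1 and Bbs4 lie after the start. Of the 5 genes with a match to this X-box form, Ift57 fell in KI and the other 4 did not pass the adjusted p threshold. The 6 matches are given below in the reading direction of the motif, with the letters that the motif fixes in capitals.
Bbs1, chr19:4906613-4906626: GTcgCCttgGcAAC
Bbs4, chr9:59353472-59353485: GTcgCCcggGaAAC
Bbs7, chr3:36613497-36613510: GTtgCCttgGaAAC
Ift22, chr5:136908087-136908100: GTagCCcagGaAAC
Ift22, chr5:136908117-136908130: GTcgCCgtgGaAAC
Ift57, chr16:49699207-49699220: GTcaCCacgGcAAC

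The other 5 peripheral IFT-B genes did not pass the threshold. They are Ift20, whose product also sits at the Golgi, Ift80, Ift172, the largest IFT-B subunit, and Cluap1 and Traf3ip1, which encode IFT38 and IFT54. Their log2 fold changes lay between −0.13 (Ift172) and 0.12 (Cluap1). For Cluap1, 40.8% of the exon bases are shared with other gene models, so that its counts are less certain than those of the other members.

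Among the 8 core IFT-B genes, Ift46 rose in KI and Ift81 fell, and the others did not pass the threshold. IFT46 carries axonemal cargo such as outer dynein arms. Ift46 (chr9:44773009-44792715, plus strand) had normalized counts of 1453, 1575, 1629, 1315 and 1008 in WT and 1935, 1948, 1890.3, 2466 and 2052 in KI. All 5 KI values lay above all 5 WT values, and the lowest WT value and the highest KI value came from libraries 4 and 5. The mean was 1396 ± 248 in WT and 2058 ± 235 in KI (SD, n = 5), and the log2 fold change was 0.57 (SE 0.13, 95% interval 0.30 to 0.84, limma adjusted p = 0.00388), just below 1.5-fold. Libraries 1 to 3 gave 0.31 and libraries 4 and 5 gave 0.97, a difference of 0.65 with a limma adjusted p of 0.0904. Ift46 passed the 1.5-fold limit when WT library 1, 2 or 3 or KI library 1, 2 or 3 was left out, and with library totals, where the log2 fold change was 0.80.

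IFT81 forms, with IFT74, the module that binds tubulin. Ift81 had normalized counts of 1962, 1957, 1600.3, 1524 and 1801 in WT and 1355, 1411, 1389.9, 1577 and 1466 in KI. The genotypes overlapped, since KI library 4 exceeded WT library 4. The log2 fold change was −0.29 (SE 0.09, limma adjusted p = 0.0360), with −0.40 in libraries 1 to 3 and −0.12 in libraries 4 and 5. The adjusted p passed 0.05 no longer with library totals, with upper-quartile scaling, in libraries 4 and 5 alone, or without WT library 1, 2 or 5 or KI library 1, 2 or 3, and reached 0.0968 among these omissions of a library. Its partner Ift74 had 2705 ± 285 in WT and 2219 ± 266 in KI (SD, n = 5), a log2 fold change of −0.29 that missed the threshold (limma adjusted p = 0.0579). With the library number as a block, the adjusted p of Ift74 by limma was 0.0225, and with a term for the library set 0.0248. DESeq2 gave an adjusted p of 0.0424 for Ift74. Libraries 1 to 3 gave −0.44 for Ift74 (adjusted p = 0.00204 by limma) and libraries 4 and 5 gave −0.07 (0.813).

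The remaining core genes are Ift22 and Ift27, which encode small GTPase-like subunits, Ift52 and Ift88, which hold the core together, and Hspb11, which encodes IFT25, the partner of IFT27. Their log2 fold changes ran from −0.20 (Ift27, limma adjusted p = 0.143) to 0.12 (Ift52). Ift88 had 1289 ± 115 in WT and 1320.0 ± 75.3 in KI (SD, n = 5), with a 95% interval of the log2 fold change from −0.15 to 0.22.

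Of the 3 IFT-A genes, Ift43 fell and Ift122 and Ift140 did not pass the threshold. IFT43 is a small subunit of the complex. Ift43 (chr12:86082561-86162460, plus strand) had normalized counts of 1543, 1554, 1544, 1534 and 1402 in WT and 1182, 1323, 1326, 1272 and 975 in KI. The genotypes did not overlap, and library 5 was the lowest of each. The mean fell by 19.8%, from 1515 ± 63.5 to 1216 ± 146 (SD, n = 5), or −0.33 on the log2 scale (SE 0.10, adjusted p = 0.0228 by limma). With library totals the log2 fold change was −0.10 and with upper-quartile scaling −0.23, and neither passed the threshold, nor did libraries 4 and 5 alone or the omission of WT library 1 or 2. Tulp3, which links IFT-A to membrane receptors, had the lowest counts of all members, with 61.7, 75.2, 87.0, 54.2 and 96.9 in WT and 108, 73.0, 85.5, 64.4 and 74.5 in KI. The genotypes overlapped widely, and the log2 fold change was 0.12 (95% interval −0.28 to 0.52).

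Among the 7 BBSome genes, Bbs5 fell, and no other passed the adjusted p threshold. BBS5 is the subunit with pleckstrin-homology-like domains that contact lipids. Bbs5 (chr2:69647171-69667572, plus strand) had normalized counts of 870.3, 874, 791, 697 and 666 in WT and 675, 590.1, 632, 514 and 411 in KI. KI library 1 exceeded WT library 5, so that the genotypes overlapped, while each KI value was below the WT value of the same number. The mean was 779.8 ± 96.1 in WT and 565 ± 104 in KI (SD, n = 5), and the log2 fold change was −0.48 (SE 0.13, 95% interval −0.76 to −0.19, limma adjusted p = 0.0170). The sets gave −0.42 (libraries 1 to 3) and −0.57 (libraries 4 and 5). With library totals it was −0.25 and did not pass the threshold (limma adjusted p = 0.173).

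BBS1 is the subunit through which ARL6 holds the BBSome. Bbs1 had normalized counts of 486, 456, 413, 494 and 471 in WT and 607, 546, 545, 531 and 528 in KI. All KI values were above all WT values, but the log2 fold change of 0.25 missed the threshold (limma adjusted p = 0.0557). Bbs1 passed it with the library number as a block (adjusted p = 0.0279 by limma) and with DESeq2 (adjusted p = 0.0324). It also passed with library totals, with upper-quartile scaling, with a term for the library set and in libraries 1 to 3 alone. In libraries 4 and 5 alone it did not pass (adjusted p = 0.644 by limma). Bbip1, the smallest BBSome subunit, had 1025 ± 165 in WT and 852 ± 149.9 in KI (SD, n = 5), with a log2 fold change of −0.27 (limma adjusted p = 0.187, and 0.0162 with the block). The 4 remaining subunits, Bbs2, Bbs4, Bbs7 and Bbs9, lay between −0.09 and 0.06 on the log2 scale.

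Both genes that control where the BBSome goes had lower means in KI, and Arl6 passed the threshold. Arl6 had normalized counts of 604, 588, 539, 608 and 570.4 in WT and 533, 502, 489, 473 and 369 in KI, with no overlap between genotypes. Its log2 fold change was −0.31 (SE 0.10, limma adjusted p = 0.0465), with −0.18 in libraries 1 to 3 and −0.49 in libraries 4 and 5. This call was weak, since the adjusted p rose above 0.05 on leaving out any library other than KI library 1, to at most 0.0959, in either library set alone, with library totals and with upper-quartile scaling. LZTFL1 restrains the entry of the BBSome into cilia. Lztfl1 had 2097, 2191, 1802, 1807 and 1745 in WT and 1678, 1663, 1552, 1695 and 1651 in KI. Each KI value was below each WT value, the KI values were closely grouped, and the log2 fold change of −0.22 missed the threshold (limma adjusted p = 0.0834, and 0.0356 with the block). Libraries 1 to 3 gave −0.31 for Lztfl1 (adjusted p = 0.00960 by limma) and libraries 4 and 5 gave −0.09 (0.748).

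The chaperonin-like genes showed no change past the threshold. Bbs10 had normalized counts of 423, 425, 344, 506 and 409 in WT and 363, 415, 381, 423 and 376 in KI, and the genotypes overlapped. The log2 fold change was −0.10 for Bbs10 (95% interval −0.33 to 0.13) and 0.12 for Bbs12 (95% interval −0.18 to 0.42).

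In all, the genotypes did not overlap in 6 members, with KI below WT in Ift57, Ift43, Arl6 and Lztfl1 and above it in Ift46 and Bbs1. This is 6 of 29 members beside 17.7% of all genes, made up of 4 below, beside 10.9%, and 2 above, beside 6.80%. The library number, used as a block, moved the count at an adjusted p under 0.05 from 5 to 8 lower and from 1 to 2 higher members, the additions being Ift74, Lztfl1, Bbip1 and Bbs1, while all genes went to 17.4% lower and 14.7% higher. The count at 1.5-fold stayed at 1 lower and 0 higher under the block.

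**Figure D2:**
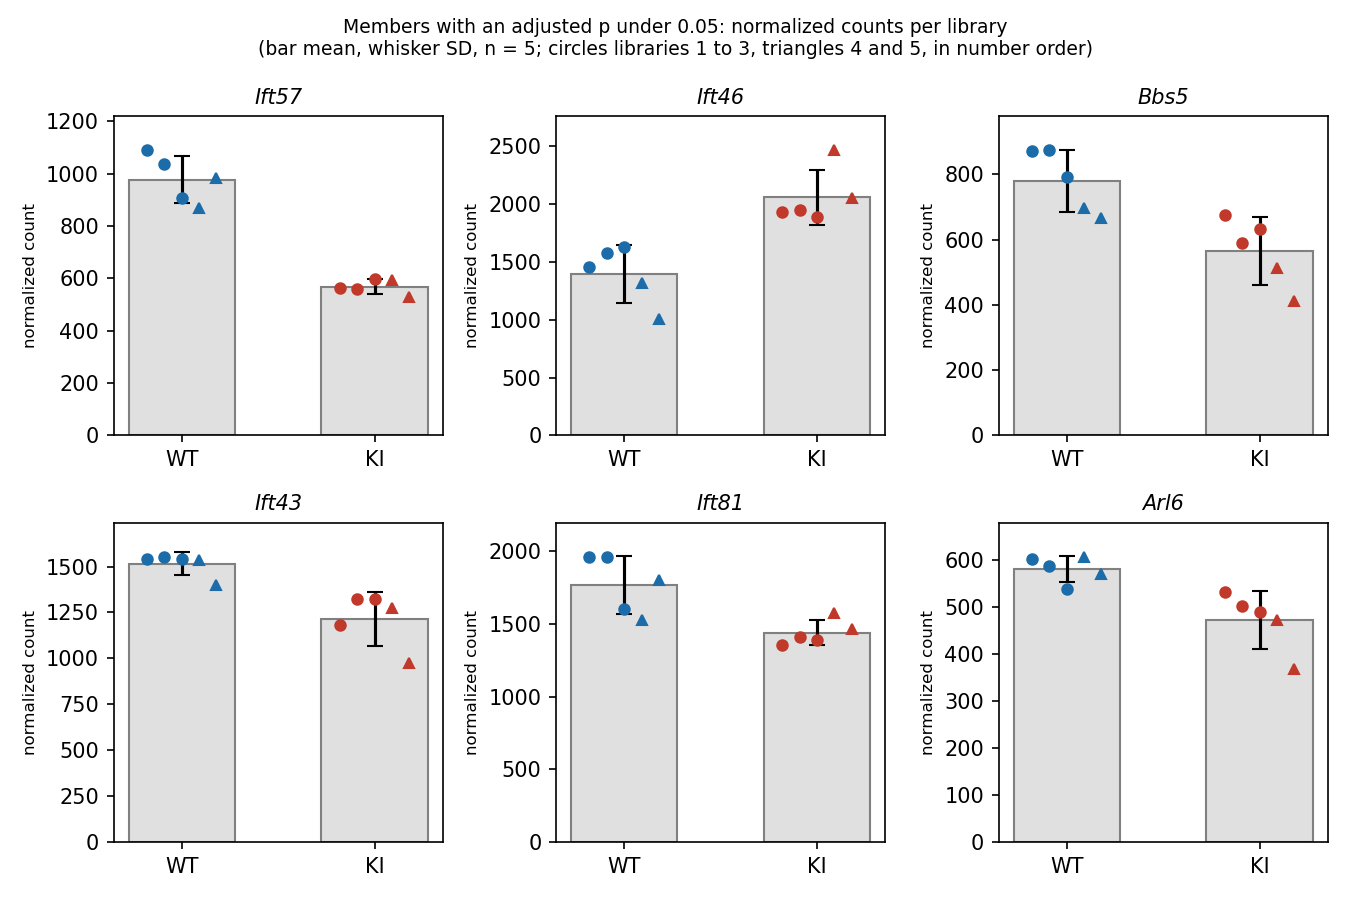
Normalized counts of the 6 members with an adjusted p under 0.05, one point per library, with the mean and SD (n = 5) of each genotype. Ift57, Ift43 and Arl6 lie lower in KI and Ift46 higher in KI with no overlap, whereas WT and KI points overlap in Bbs5 and Ift81.

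Levels of the 29 genes spanned a wide range. Divided by the exon length of each gene, the mean WT level was highest for Ift140 at 1415 normalized counts per kb and lowest for Tulp3 at 8.03, a ratio of 176. The length joins all exons that GENCODE gives for a gene, whereas the reads were counted on RefSeq genes. The order below depends on this choice of length. Ift140 was followed by Ift74 at 1019, Ift172 at 996 and Ift43 at 918, then Ift22 at 566 and Ift122 at 504. The 3 IFT-A genes that the rule takes in were thus among the 6 highest members. Of the BBSome genes in the rule Bbs5 was the highest at 319 and Bbs4 the lowest at 57.0. Wdr19, Wdr35 and Ttc21b of IFT-A and Ttc8 of the BBSome lie outside the rule and were not ranked. In this order 23 of 28 neighbouring pairs had overlapping WT libraries. Ift140 stood apart from Ift74, Ift43 from Ift22, Ift122 from Cluap1, Bbs2 from Hspb11 and Bbs12 from Tulp3. Ift57 was the ninth in WT, at 342 per kb, and had 199 per kb in KI. The summed normalized count of the members was 45889 to 51275 in WT libraries and 43308 to 54836 in KI libraries, which overlap.

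**Figure D3:**
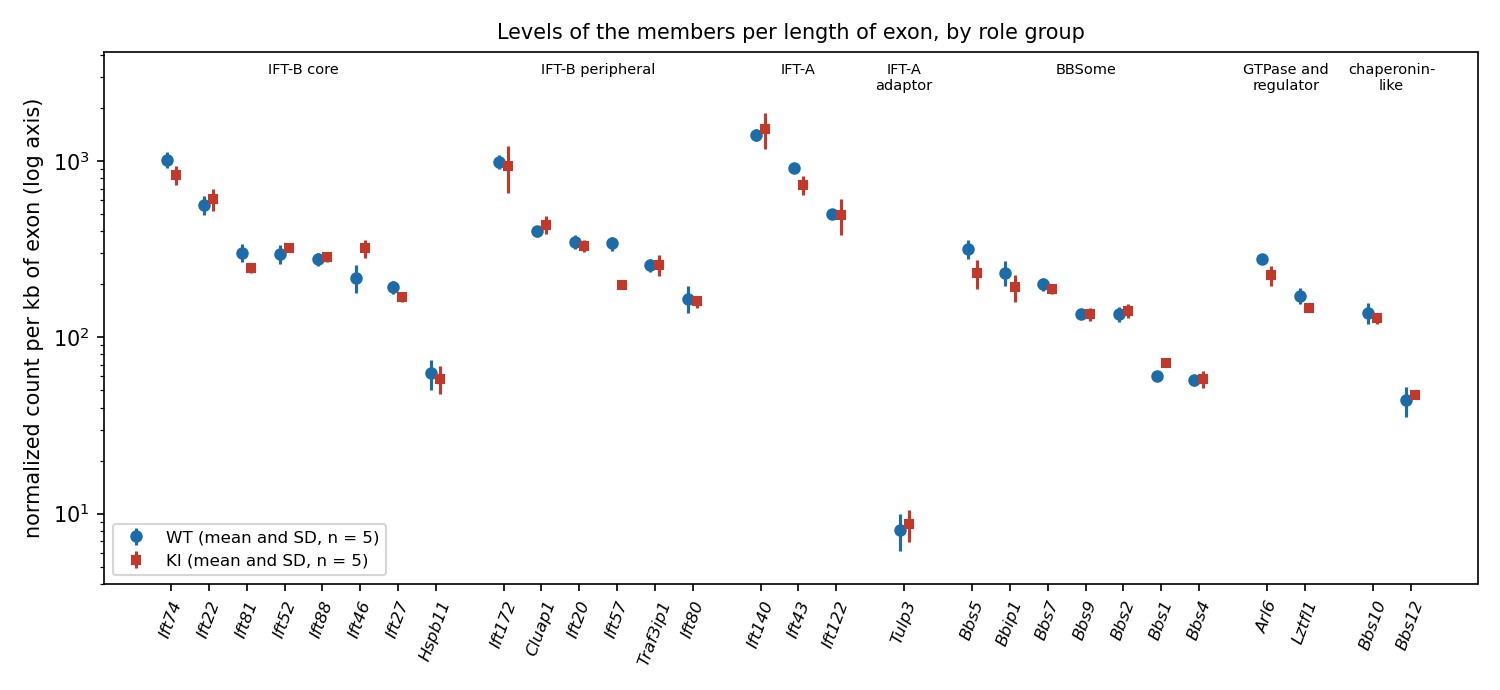
Mean level of each of the 29 genes in WT and KI, in normalized counts per kb of exon on a log axis, with the SD over 5 libraries as bars. Genes are grouped by role and ordered by the WT level within each role. Ift140 is highest at 1415 per kb in WT and Tulp3 lowest at 8.03, and WT and KI points lie close together for most genes.

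The library sets gave opposite directions for Ift172 and Ift122, which encode large subunits of IFT-B and IFT-A. Ift172 had normalized counts of 6489.7, 6668 and 5836 in WT libraries 1 to 3 and 4832, 5162 and 4688 in KI libraries 1 to 3, but 6451 and 7524 in WT libraries 4 and 5 and 7609 and 8757 in KI libraries 4 and 5. KI was thus below WT in the first set and above it in the second, with no overlap in either. The log2 fold change was −0.37 in the first set and 0.23 in the second, a difference of 0.60 with a limma adjusted p of 0.0903 over all genes. Ift122 had 5024, 5160.0 and 4830.0 in WT libraries 1 to 3 and 4092, 4518 and 4196 in KI libraries 1 to 3, but 5343 and 5627 in WT libraries 4 and 5 and 6330.4 and 6520.4 in KI libraries 4 and 5. The same turn was seen, with −0.23 and 0.23 and a difference of 0.46 (limma adjusted p = 0.106). Such a turn without overlap was found in 2 of 29 members and in 3.08% of all genes.

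No member passed an adjusted p of 0.05 in the limma test of this difference, beside 0.247% of all genes, and without WT library 5 or KI library 4 Ift172 passed it (adjusted p = 0.0423 and 0.0295 by limma). Ift140 had log2 fold changes of −0.08 and 0.33 in the sets. The median over the members was −0.12 for libraries 1 to 3 and −0.04 for libraries 4 and 5, and that of all genes was 0.02 for each. Tested alone at 1.5-fold, libraries 1 to 3 gave 1 call among the members (Ift57), beside 15.8% of all genes, and libraries 4 and 5 gave 2 (Ift57 and Ift46), beside 10.1%. In libraries 4 and 5 the fold change moved with the exon length of a gene. Over all genes its median went from −0.30 for genes of up to 1500 bp of exon to 0.14 for genes over 8000 bp, and in libraries 1 to 3 the same classes had −0.09 and −0.01. Across the 29 members the correlation of log2 fold change with log2 exon length was 0.50 (Spearman 0.58) in libraries 4 and 5 and 0.10 (Spearman 0.10) in libraries 1 to 3. These are correlations across genes that share the same libraries, and the part of exon length in the difference between the sets was not tested.

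**Figure D4:**
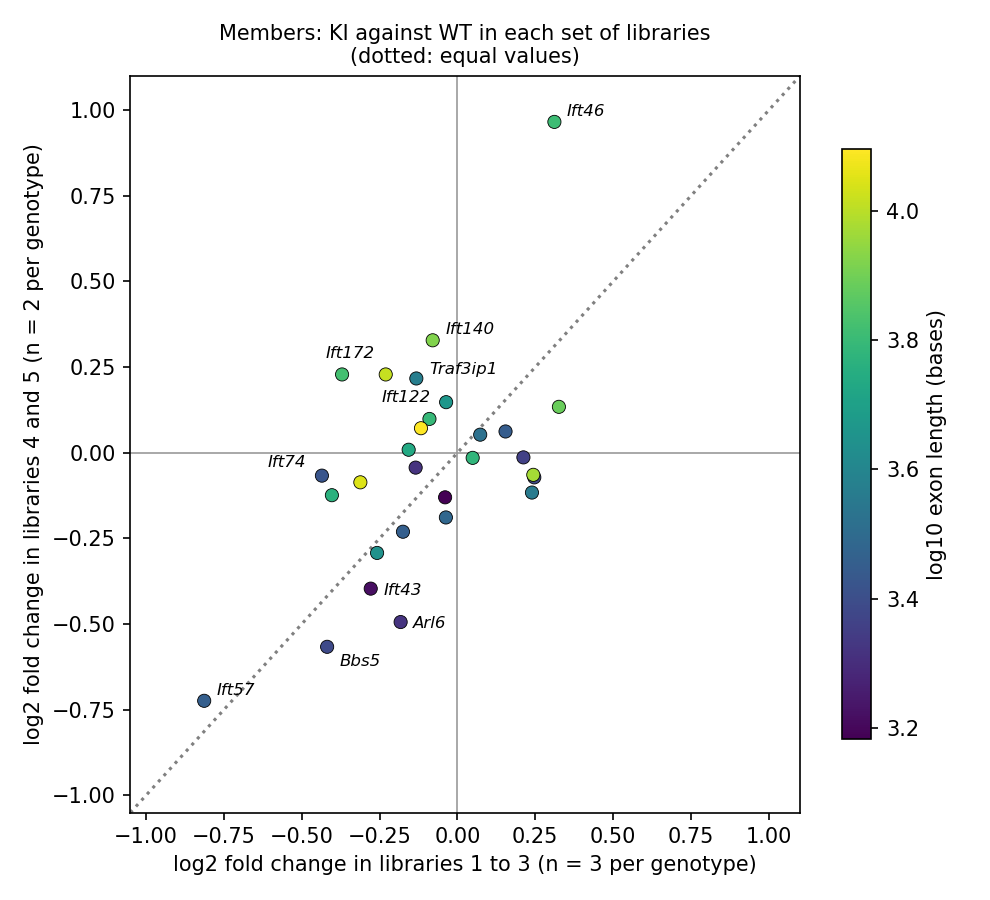
Log2 fold change of each member, KI against WT, in libraries 1 to 3 on the horizontal axis and in libraries 4 and 5 on the vertical axis, with exon length on a log10 scale as the colour and equal values on the dotted line. Ift57 is low in both sets, Ift46 is higher in libraries 4 and 5, and Ift122 and Ift172 lie left of 0 on the horizontal axis and above 0 on the vertical axis.

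The other genes of the pathway were taken as 5 lists, of which 63 genes were in the table. Together 5 were lower in KI at 1.5-fold and 0 higher, beside 8.22% and 6.13% of all genes. The 9 remaining subunits of IFT-B, IFT-A and the BBSome and their chaperone (Ttc30a1, Ttc30a2, Ttc30b, Ttc26, Wdr19, Wdr35, Ttc21b, Ttc8 and Mkks) had 0 calls and log2 fold changes from −0.11 to 0.15. None had an unadjusted p under 0.05, beside 18.4% lower and 16.2% higher among all genes. These 9 genes share function with the members but took no part in the rule. All 9 had a 95% interval within 1.5-fold, beside 54.0% of all genes.

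Of the 15 motor genes 3 were lower at 1.5-fold, beside 8.22% of all genes. By the adjusted p alone 4 were lower, beside 13.3%, and 1 higher, beside 9.65%. Kif17, a kinesin-2 motor of which a testis form shuttles the spermatid coactivator ACT, had normalized counts of 6817, 8011, 8113, 6597 and 7570.1 in WT and 3199.9, 3579, 3368, 4763 and 4360.1 in KI. Every KI library was below every WT library, and the change was −0.96 on the log2 scale (SE 0.12, adjusted p = 3.23e-05 by limma). Kifap3, the non-motor subunit of kinesin-II, had 5347, 5476, 5015, 4196 and 4304 in WT and 3069.8, 3197, 2985, 3339.7 and 2935 in KI, again with no overlap. The change was −0.64 on the log2 scale (SE 0.10, adjusted p = 0.000187 by limma), which in libraries 4 and 5 alone did not pass (adjusted p = 0.0639). Dynll2, a dynein light chain that also serves other dyneins and myosin V, went from 4249 ± 357 to 2418 ± 213 (SD, n = 5), a change of −0.81 on the log2 scale (SE 0.09, adjusted p = 1.44e-05 by limma). Kifap3 and Dynll2 came under the 1.5-fold limit when scaled to library totals, at −0.41 and −0.58 on the log2 scale, and Kif17 stayed above it at −0.73.

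Of 15 ciliary GTPases and cargo carriers, 1 was called, Rab28, a small GTPase linked to the BBSome and to photoreceptor outer segments. It went from 917 ± 119 in WT to 466 ± 65.9 in KI (SD, n = 5), with a log2 fold change of −0.98 (limma adjusted p = 2.87e-05). None of the 17 transition zone genes, which form the gate at the base of the axoneme, was called at 1.5-fold. Of 7 RFX and FOXJ1 regulators 1 was called, Rfx3, one of the factors that bind the X-box, which went from 659 ± 56.1 to 429 ± 40.1 (SD, n = 5) with a log2 fold change of −0.62 (limma adjusted p = 0.000292), and did not pass in libraries 4 and 5 alone (adjusted p = 0.109). With library totals the log2 fold change of Rfx3 was −0.39, under the 1.5-fold limit. Rfx2, the family member best known for its role in spermatid development, had 6366 ± 475 in WT and 5646 ± 958 in KI, and its log2 fold change of −0.19 did not pass (limma adjusted p = 0.272).

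**Figure D5:**
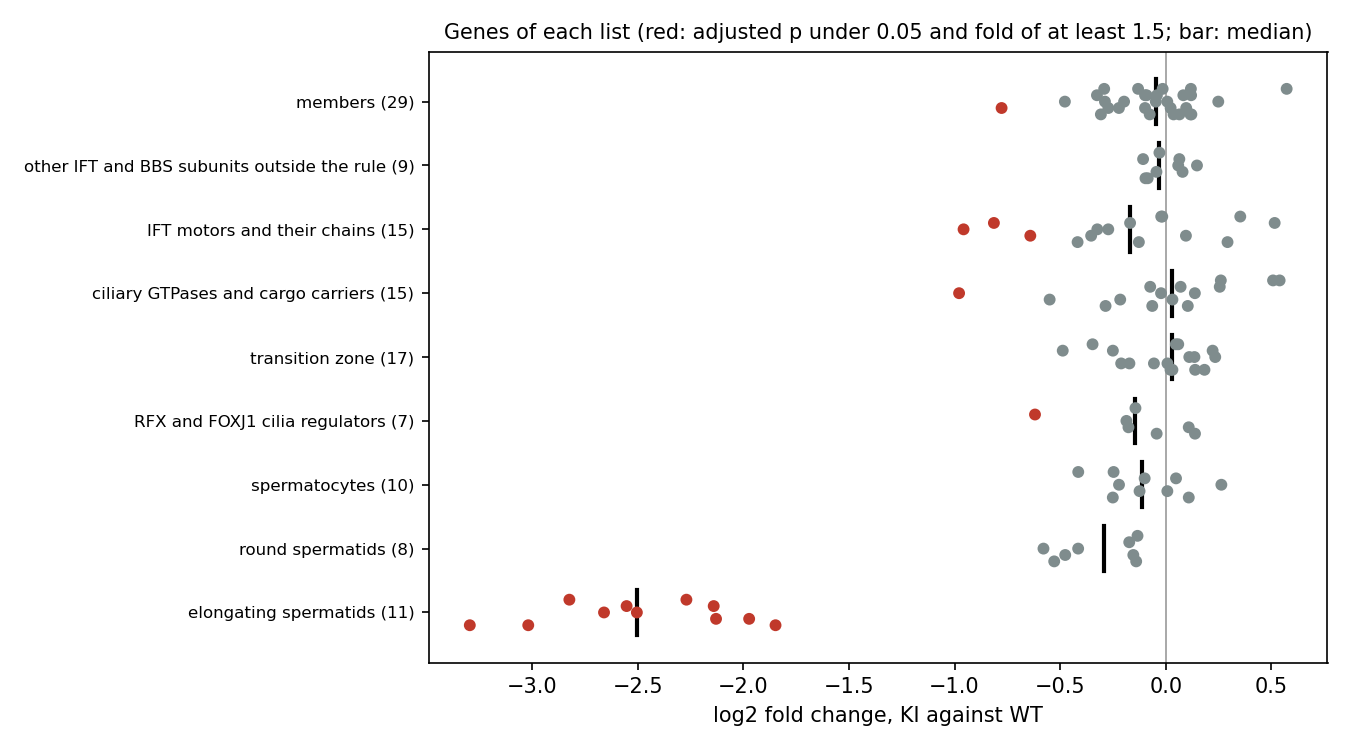
Log2 fold changes, KI against WT, of single genes in the members, the other pathway lists and the germ cell marker lists, one point per gene, red where called at 1.5-fold, with the median of each list as a bar. The members and the other subunits gather around 0, and all 11 elongating spermatid markers lie at −1.85 or below.

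In other gene families, calls at 1.5-fold are given beside 8.22% lower and 6.13% higher among all genes. Of 14 axonemal dynein heavy chain genes (Dnah) 0 were lower and 2 were higher. Of 32 Cfap genes, which encode proteins of cilia and flagella, 2 were lower and 0 higher. Of 39 kinesin genes (Kif), which include Kif17, 5 were lower and 1 was higher. The 8 markers of round spermatids, the cells in which the flagellum starts to grow, had a median log2 fold change of −0.29, with 3 lower by the adjusted p alone, with the values by library set given above, and their summed normalized count was 21344 to 23348 in WT and 13029 to 20223 in KI. The 10 spermatocyte markers had a median of −0.11 and overlapping sums. Of somatic cells, 3 of 7 Leydig cell markers, 6 of 9 macrophage markers, 2 of 5 endothelial markers and 2 of 5 peritubular markers were higher, 1 peritubular marker (Actg2) was lower, and none of 8 Sertoli cell markers was called. Actg2 had a mean of 3325 in WT, while the other peritubular markers tested had 11.9 to 54.4. The Sertoli cell median was 0.36 in libraries 1 to 3, with 1 call, and −0.25 in libraries 4 and 5, with 0. Of 7 spermatogonial markers none was called at 1.5-fold. The share of these cell types in the values of Ift57, Ift46 and the other members was not tested.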

How the data were processed

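RNA of testicular germ cells from 5 WT and 5 KI mice was analysed as 1 library per mouse, with groups taken from the sample labels. The values are the signal deposited by the authors, who aligned with STAR to mm10, used the E/M model of Partek for counting on RefSeq genes, and normalized by the size factors of DESeq2. Dividing by the value of 1 read returned whole reads (within 0.1) for 100% of the values under 5000 reads. Columns not assigned to a library numbered 0. Differences were tested with limma 3.58.1 (R 4.3.3, variance trend) on log2(value + 1) for the 15389 genes that passed filterByExpr of edgeR 4.0.16, adjusted by Benjamini-Hochberg, and called at an adjusted p under 0.05 and a fold change of at least 1.5. The edgeR quasi-likelihood test and DESeq2 1.42.0 on the recovered reads were alternatives, as were other pseudocounts, filters, scalings and thresholds, a replicate block, a term for the library set, each set alone and leaving out each library.

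The fits were tested on simulated data. The residuals of WT and KI libraries that share a number had correlations of 0.306, 0.105, 0.280, 0.216 and 0.462, all over 0.1. The number was therefore fitted as a block in an alternative, although for 2 of the 5 numbers another library correlated better. The labels give no pairing of the mice. The term for the library set gave the same counts of members by the adjusted p as the block, 8 lower and 2 higher. Exon lengths and overlaps came from GENCODE and promoters from RefSeq (GRCm38.p6). The members, the pathway and marker lists and the library sets were chosen with earlier results of these data known. Every member is named. Values in every library are given for members with an adjusted p under 0.05 or no overlap between genotypes and for the lowest p of each role group, and other pathway genes are named with values where called. Rfx2, the Bbs5 and Ift46 positions and the promoter of Ift46 were chosen after their values were seen. P-values measure the spread between these libraries.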

Additional observations from a re-analysis of the deposited data

Results flagged for a closer look

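In 4 of 68 groups of 5 libraries examined, 1 library lay far from the other 4 of its genotype, and chance alone would do this in about 1 of 20 groups. Bbs1 had a normalized count of 607 in KI library 1 against 528 to 546 in the other KI libraries. Bbs2 had 526 in WT library 1 against 424 to 431 in the others. Ift43 had 1402 in WT library 5 against 1534 to 1554. Ift46 had 2466 in KI library 4 against 1890.3 to 2052, and without that library its log2 fold change was 0.51 in place of 0.57. For Ift122 and Ift172 all KI libraries were below WT in libraries 1 to 3 and above WT in libraries 4 and 5. The log2 fold changes of the sets differed by 0.46 for Ift122 and by 0.60 for Ift172, and the limma test of the difference gave adjusted p-values of 0.106 and 0.0903.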

How the results depend on the processing

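Over the members, outside the omission of single libraries, 340 log2 fold changes kept their side of the threshold, 25 passed it only in the alternative and 11 no longer passed. Of 377, 28 changed sign, 10 with library totals, 5 with upper-quartile scaling, 3 in libraries 1 to 3 and 10 in libraries 4 and 5. None of these belonged to the 6 members with an adjusted p under 0.05, and 1 passed the threshold after the change, Bbs9 at 0.21 with library totals. The cause of these changes was not tested unless given. At 1.5-fold the count of lower members was 1, and 0 with library totals or a fold of 2. The count of higher members was 0, and 1 (Ift46) with library totals, upper-quartile scaling or libraries 4 and 5 alone, and 0 to 1 without single libraries. By the adjusted p alone there were 5 lower members, beside 13.3% of all genes. With the share of all genes in brackets, the count was 1 with library totals (7.92%), 2 with upper-quartile scaling (10.7%) and 8 with the replicate block (17.4%). It was 8 with a term for the library set (17.2%), 9 in libraries 1 to 3 (17.9%) and 2 in libraries 4 and 5 (7.62%). Without single libraries it was 2 to 5 (11.1% to 13.3%), the fewest without WT library 1 or 2. There was 1 higher member, beside 9.65% of all genes, and 9 with library totals (32.6%) and 3 in libraries 1 to 3 (13.3%). The count was 2 with upper-quartile scaling (15.5%), DESeq2 (11.1%), the block (14.7%) or the set term (14.2%). The other pathway genes had 5 lower and 0 higher calls, 2 and 3 with library totals, 3 and 3 with upper-quartile scaling, 1 higher in libraries 4 and 5, and 4 to 6 lower and 0 to 1 higher without single libraries. All genes had 1265 lower and 944 higher calls, 789 and 2145 with library totals, 571 higher with the stricter filter (fewer genes tested) and 472 higher in libraries 4 and 5, and 1136 to 1300 lower and 817 to 1020 higher without single libraries. The members' median was −0.05, 0.18 with library totals, 0.047 with upper-quartile scaling, −0.12 in libraries 1 to 3 and −0.08 to −0.03 without single libraries. Members past the threshold for the set difference numbered 0, and 0 to 1 without single libraries. The block changed no count at 1.5-fold of the members and the other pathway genes. Tulp3, which had the lowest counts, had the largest SE (0.19).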
